A study of Mus musculus with 32 samples.

Results

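Glucocorticoid signalling was followed in the mouse heart through 35 genes chosen by their array gene names, 4 of them receptors or steroid-converting enzymes and 31 of them genes that the glucocorticoid receptor is known to induce. The 35 genes stand among 36409 names on the array. All 35 had a probe, with 47 probes in all, and 34 passed the filter on dim probes. The exception was Hsd11b2, whose only probe was well above background on 10 of 32 arrays.

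Hearts came from C57BL/6 mice in a laboratory model of posttraumatic stress, in which a subservient mouse is exposed to an aggressor. Stressed mice spent 6 hours a day in a wire mesh box within the cage of an aggressor and were repeatedly put with it and attacked, over 5 or 10 consecutive days. Control mice sat in the same kind of box in a large cage that held no aggressor, so both arms share the box. Each condition had its own 4 stressed and 4 control mice, with 1 array a mouse: 5 days of exposure with 1 day of rest (T5R1), 5 days with 10 days of rest (T5R10), 10 days with 1 day of rest (T10R1) and 10 days with 42 days of rest (T10R42). Age and sex are not given in the labels used here. The RNA came from heart tissue, so cell types are mixed.

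Glucocorticoids, corticosterone in the mouse, are released by the adrenal gland under stress and bind the glucocorticoid receptor, which chaperones hold in the cytoplasm until the hormone arrives. The bound receptor enters the nucleus and turns genes on at palindromic response elements, or lowers inflammatory genes. Heart muscle cells carry both this receptor and the mineralocorticoid receptor, which corticosterone can also occupy, and enzymes in the tissue convert the hormone between its active and inert forms.

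Because the bound receptor turns genes on at response elements, the palindromic element was looked for in the promoters of the members. RefSeq promoter windows on GRCm38.p6, from 250 bases before to 50 after each start, were matched by symbol for 29 of the 35 genes. They were not matched for Nr3c1, Hsd11b2, Zbtb16, Cebpd, Angptl4 and Fbxo32. The palindrome of GNACA, any 3 bases and TGTNC, which reads alike on both strands, was present in 0.475% of all 32851 windows and in a window of 4 of the 29 genes. A gene can have several windows, as Sgk1 and Tsc22d3 do. Shares of windows and counts of genes, here and for the motifs below, are therefore not like measures. The matched stretches follow with the palindrome in capitals, each ending before the start of its gene, on the plus strand.
Sgk1, chr10:21993678-21993738: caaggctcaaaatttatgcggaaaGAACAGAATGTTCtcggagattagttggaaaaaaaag
Mt1, chr8:94178971-94179031: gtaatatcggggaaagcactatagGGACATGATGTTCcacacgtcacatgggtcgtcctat
Trim63, chr4:134314888-134314948: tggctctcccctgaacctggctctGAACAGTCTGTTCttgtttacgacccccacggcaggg
Txnip, chr3:96557761-96557821: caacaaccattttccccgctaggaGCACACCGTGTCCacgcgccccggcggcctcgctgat

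The Sgk1 stretch belongs to 1 of its 6 annotated starts and holds the stricter palindrome of AGAACA, any 3 bases and TGTTCT, found in 0.00913% of windows. None of these 4 genes was called changed in any condition, and the 4 genes that were called (Hsd11b1, Ddit4, Tat and Mt2) had no match in their windows. A match is a run of letters and not a measured binding site, and elements farther from a start were not searched. The forkhead site GTAAACA, searched on both strands, was in 3.65% of windows and in those of Hsd11b1, Klf9, Trim63 and Txnip. The E-box CACGTG was in 7.15% of windows and in those of 7 members: Fkbp5, Sgk1, Dusp1, Gadd45g, Bcl6, Irs2 and Cited2.

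Each level is a log2 signal relative to the 75th percentile of its array. A change is the log2 level of stressed hearts less that of controls, given with its standard error (SE, n = 4 mice per arm). A gene is called when its limma p, adjusted by Benjamini-Hochberg over all 27532 genes tested, is below 0.05. Levels are compared within a condition, because each slide carried the 8 arrays of 1 condition. The arms occupied different columns of the slide, so column and stress cannot be told apart. Array signals of different probes were not set against each other.

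In T5R1, 4 of the 34 tested genes were called, where 13.7% of all genes were. Hsd11b1, Ddit4 and Tat fell (8.43% of all genes fell), and Mt2 rose (5.3% rose). In the other 3 conditions limma called 0 members. The background in T5R10 was 0.0763% of genes, with 0.0218% higher and 0.0545% lower. In T10R1 it was 1.13%, with 0.774% higher and 0.36% lower, and in T10R42 0.897%, with 0.287% higher and 0.61% lower. At an unadjusted limma p below 0.05, 1 member was higher and 9 lower in T5R1, 4 higher and 1 lower in T5R10, 0 higher and 13 lower in T10R1, and 1 higher and 1 lower in T10R42. Of all genes, 29.5%, 14%, 13.1% and 18.8% were below that p in the same order. By direction, of 27532 genes, 2520 were higher and 5606 lower in T5R1, and 1786 higher and 2057 lower in T5R10. In T10R1 1751 were higher and 1862 lower, and in T10R42 1964 higher and 3202 lower. The map of changes shows these directions gene by gene.

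**Figure D1:**
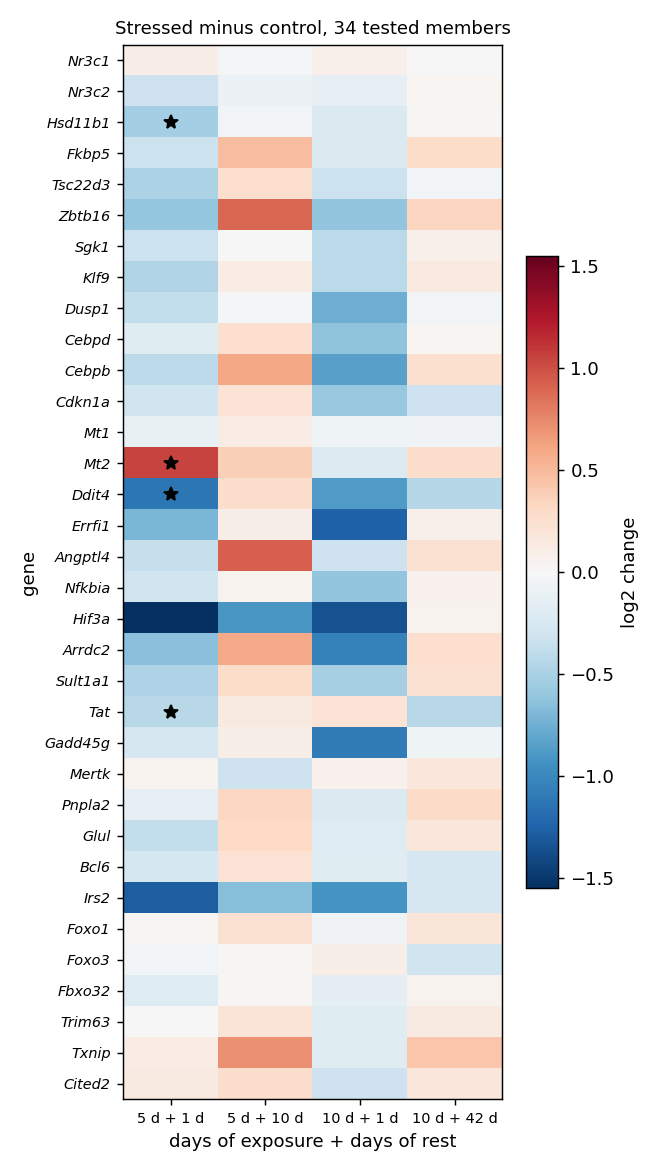
Log2 change of the 34 tested members (rows) in the 4 conditions (columns, days of exposure plus days of rest), with blue for lower and red for higher levels in stressed hearts. Stars mark the 4 calls, all in T5R1, and most cells of T5R1 and T10R1 are blue while most of T5R10 are red.

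Among the receptors and enzymes, the transcript of the enzyme that makes active hormone fell in T5R1. That of the glucocorticoid receptor had small changes throughout. Hsd11b1 encodes the enzyme that regenerates corticosterone from its inert form. Its levels in T5R1 were 2.33, 2.42, 2.40 and 2.35 in controls and 1.60, 1.81, 1.90 and 2.06 in stressed hearts. The arms did not overlap, and Hsd11b1 fell by 0.53 ± 0.14 (limma adjusted p = 0.0132). The probe lies at chr1:195048169-195048228 on the minus strand of mm9. Without stressed replicate 1, the lowest of the arm, the change was -0.45 and the adjusted p 0.0644.

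In the other conditions the arms of Hsd11b1 overlapped. Its levels in T5R10 were 2.53, 2.32, 2.40 and 2.53 in controls and 2.35, 2.44, 2.54 and 2.27 in stressed hearts, a change of -0.05 ± 0.14. In T10R1 they were 2.40, 2.57, 2.19 and 2.41 in controls and 1.505, 2.35, 2.44 and 2.38 in stressed hearts, so 1 stressed heart lay far below the rest. In T10R42 they were 2.50, 2.52, 2.49 and 2.44 in controls and 2.80, 2.43, 2.48 and 2.33 in stressed hearts, a change of 0.02 ± 0.14.

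Nr3c1 encodes the glucocorticoid receptor itself and was well above background on all arrays. In T5R1 its levels were 3.93, 3.96, 3.94 and 3.94 in controls and 4.05, 3.97, 4.03 and 4.14 in stressed hearts. Stressed hearts all lay above controls, yet the change was 0.11 ± 0.08, with a 95% interval from -0.06 to 0.27 (adjusted p = 0.374). In T5R10 its levels were 4.13, 4.03, 3.95 and 3.97 in controls and 4.09, 3.83, 4.02 and 4.07 in stressed hearts.
In T10R1 they were 4.12, 4.05, 4.02 and 4.16 in controls and 4.20, 4.17, 4.05 and 4.25 in stressed hearts, and in T10R42 4.03, 4.13, 4.04 and 4.14 against 3.90, 3.91, 4.29 and 4.22. The arms overlapped in these 3 conditions, with changes of -0.02, 0.08 and -0.00 (SE 0.08 each). The spread between mice of an arm was small, with a pooled SD of 0.10, below which 6.6% of all genes lay. A second, dimmer Nr3c1 probe gave 0.07, -0.20, 0.24 and -0.07 in the same order of conditions.

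Nr3c2, the mineralocorticoid receptor, had levels in T5R1 of -2.24, -2.79, -2.88 and -2.74 in controls and -2.85, -2.96, -3.28 and -2.84 in stressed hearts. In T5R10 they were -1.89, -1.80, -1.60 and -1.77 in controls and -1.67, -1.96, -1.67 and -2.11 in stressed hearts. In T10R1 they were -2.32, -2.68, -2.50 and -2.66 in controls and -2.70, -2.83, -2.75 and -2.37 in stressed hearts. In T10R42 they were -1.95, -1.68, -1.93 and -1.85 in controls and -2.46, -2.08, -0.59 and -2.13 in stressed hearts, where replicate 3 lay above all others. The arms overlapped in every condition, and the changes ran from -0.32 ± 0.24 in T5R1 to 0.04 ± 0.24 in T10R42. Hsd11b2, which inactivates corticosterone, has no change given because its probe was not measured above background on most arrays.

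Of the 31 targets, Ddit4 had the smallest p in T5R1. It encodes an inhibitor of the growth kinase mTORC1 and is induced by glucocorticoids, low energy and low oxygen. Its levels in T5R1 were 5.92, 5.35, 4.99 and 5.06 in controls and 4.19, 4.11, 4.19 and 4.37 in stressed hearts. Every stressed heart lay below every control, and Ddit4 fell by 1.11 ± 0.25, to 0.462 of the control level (limma adjusted p = 0.0032). The call held under all 19 alternatives tried for it, with changes from -1.23 to -0.92. The probe lies at chr10:59412486-59412545 on the minus strand of mm9.

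Ddit4 levels in T5R10 were 5.22, 5.20, 5.67 and 5.03 in controls and 6.03, 5.76, 5.28 and 5.17 in stressed hearts. The arms overlapped, with a change of 0.28 ± 0.25. In T10R1 the levels were 5.83, 5.22, 5.34 and 4.90 in controls and 4.31, 4.12, 4.80 and 4.53 in stressed hearts. The arms did not overlap there either, but the change of -0.88 ± 0.25 missed the threshold (limma adjusted p = 0.0808, and 0.142 without control replicate 3). In T10R42 the levels were 4.62, 4.92, 5.61 and 5.63 in controls and 4.37, 4.99, 4.62 and 5.06 in stressed hearts, a change of -0.44 ± 0.25 with overlapping arms.

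Tat encodes tyrosine aminotransferase, a liver enzyme that is a classical hormone-induced gene, and its signal here was modest. In T5R1 it was measured at -0.24, 0.15, -0.14 and -0.18 in controls and -0.64, -0.54, -0.44 and -0.53 in stressed hearts. Again the arms were separate, and Tat fell by 0.43 ± 0.14 (limma adjusted p = 0.0345). The call was lost in 9 of 19 alternatives, among them quantile normalisation (adjusted p = 0.0695), array median scaling (0.0768) and the loss of 6 of the 8 single arrays: each control but replicate 1, and each stressed heart but replicate 3 (adjusted p up to 0.131, without control replicate 2). The probe lies at chr8:112523207-112523266 on the plus strand of mm9.

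For Tat the measured direction varied, but no difference between conditions passed the limma test. The effect in T10R1 was 0.65 above that in T5R1 (adjusted p = 0.0925), that in T5R10 0.57 above that in T5R1 (adjusted p = 0.114), and that in T10R42 lay -0.64 from that in T10R1 (adjusted p = 0.0559). In T5R10 its levels were -0.77, -0.17, 0.01 and -0.07 in controls and -0.06, -0.04, 0.00 and -0.37 in stressed hearts, which overlap. In T10R1 they were -1.09, -1.07, -1.10 and -1.27 in controls and -0.81, -0.99, -0.94 and -0.93 in stressed hearts, so the stressed hearts were all higher (change 0.22 ± 0.14, limma adjusted p = 0.533). In T10R42 they were -0.37, -0.11, -0.41 and -0.42 in controls and -0.72, -0.46, -0.72 and -1.11 in stressed hearts, so the stressed hearts were all lower (change -0.43 ± 0.14, limma adjusted p = 0.098).

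Mt2 and Mt1 encode metallothioneins, small proteins that bind zinc and copper and are induced by both metals and glucocorticoids. Mt2 levels in T5R1 were 5.16, 4.63, 4.73 and 4.34 in controls and 6.30, 5.82, 5.76 and 5.18 in stressed hearts. Every stressed heart lay above every control, and Mt2 rose by 1.05 ± 0.35, to 2.07 times the control level (limma adjusted p = 0.0435). The call was lost in 7 of 19 alternatives, which were the fit with no filter on dim probes and those without 6 of the 8 single arrays, namely all but control replicate 1 and stressed replicate 4 (adjusted p up to 0.152, without stressed replicate 1). The Mt2 probe lies at chr8:96697371-96697430 and the Mt1 probe at chr8:96704165-96704224, both on the plus strand of mm9.

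Mt1, the neighbouring gene whose window holds the palindrome shown above, did not share that rise. Mt1 levels in T5R1 were 7.85, 7.82, 7.57 and 7.68 in controls and 7.56, 7.64, 7.74 and 7.50 in stressed hearts, a change of -0.12 ± 0.13 (limma adjusted p = 0.575). The difference between the changes of Mt2 and Mt1 was not tested. In T5R10 Mt2 levels were 4.24, 4.44, 5.25 and 5.45 in controls and 5.03, 5.33, 5.23 and 5.27 in stressed hearts, and in T10R42 5.58, 4.49, 4.50 and 3.90 against 4.98, 5.17, 4.85 and 4.55. In T10R1 they were 5.04, 5.43, 6.68 and 4.68 in controls and 5.04, 5.26, 5.04 and 5.62 in stressed hearts. The arms of Mt2 overlapped in those 3 conditions, and those of Mt1 in all 4.

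**Figure D2:**
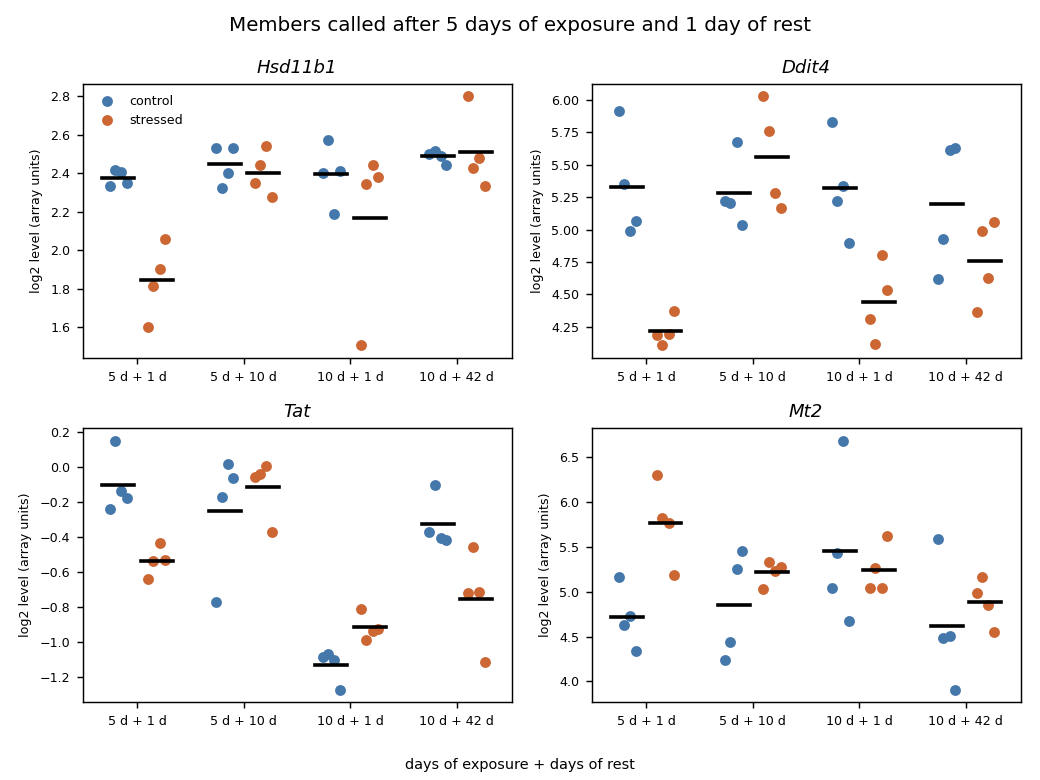
Log2 level (relative to the 75th percentile of the array) of the 4 called members in each mouse, by condition, with controls in blue, stressed mice in orange and the mean of each arm as a black line. In the first condition the stressed mice lie apart from the controls in every panel, below them for Hsd11b1, Ddit4 and Tat and above them for Mt2.

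Fkbp5, a chaperone partner that dampens the receptor and is itself strongly induced by it, was called in no condition. Its levels in T5R1 were 3.16, 2.49, 2.55 and 2.54 in controls and 2.63, 2.22, 2.29 and 2.28 in stressed hearts. In each arm replicate 1 stood above the others, and the change was -0.33 ± 0.25. In T5R10 the levels were 2.09, 1.69, 2.92 and 2.30 in controls and 2.77, 2.81, 2.86 and 2.47 in stressed hearts, a change of 0.48 ± 0.25 (limma adjusted p = 0.385). The controls there spread over a wider range than the stressed hearts, and the arms overlapped.
In T10R1 the levels were 2.87, 3.52, 2.24 and 2.25 in controls and 2.23, 2.87, 2.70 and 2.22 in stressed hearts. In T10R42 they were 2.41, 2.06, 1.99 and 1.80 in controls and 2.69, 2.25, 2.17 and 2.28 in stressed hearts. The arms overlapped in both, with changes of -0.22 and 0.29 (SE 0.25 each).

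Tsc22d3, or GILZ, carries part of the anti-inflammatory action of the hormone. Tsc22d3 levels in T5R1 were 5.77, 5.40, 5.10 and 5.14 in controls and 5.05, 4.74, 4.80 and 4.83 in stressed hearts. The arms did not overlap, and the change of -0.50 ± 0.17 fell just short of the threshold (limma adjusted p = 0.0529). In T5R10 the levels were 4.91, 4.95, 5.69 and 5.24 in controls and 5.80, 5.45, 5.35 and 5.21 in stressed hearts, a change of 0.26 ± 0.17 with overlapping arms.
In T10R1 they were 5.57, 5.46, 5.11 and 4.80 in controls and 4.84, 4.82, 4.96 and 5.02 in stressed hearts. In T10R42 they were 5.31, 4.87, 5.24 and 5.09 in controls and 5.07, 5.17, 5.11 and 4.98 in stressed hearts. The changes were -0.33 and -0.04 (SE 0.17 each), and the arms overlapped in both.

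The transcription factors Klf9, Zbtb16, Cebpb, Cebpd, Bcl6, Cited2, Foxo1 and Foxo3, which the receptor induces, had no call in any condition. For Klf9, a zinc finger repressor, the arms did not overlap in T5R1 (change -0.47 ± 0.16, limma adjusted p = 0.0548). In T10R1 its change was -0.42 ± 0.16 (adjusted p = 0.25). A second, dimmer Klf9 probe gave -0.84 and -0.35. For Zbtb16, a zinc finger regulator, the changes were -0.59, 0.89, -0.61 and 0.33 in T5R1, T5R10, T10R1 and T10R42 (SE 0.51 each). The leucine zipper factor Cebpb had -0.40, 0.60, -0.84 and 0.25 (SE 0.32), and its relative Cebpd -0.19, 0.27, -0.63 and 0.03 (SE 0.28). Bcl6, a repressor of inflammatory genes, had -0.28, 0.22, -0.19 and -0.26 (SE 0.30), and the transcriptional coregulator Cited2 had 0.14, 0.28, -0.32 and 0.17 (SE 0.18). Foxo1 and Foxo3, forkhead factors of fasting, had changes between -0.30 and 0.24. The Foxo3 probe was dim (mean log2 level -3.055). In T5R1 stressed replicate 3 was at -1.798 for Foxo3, and the nearest other stressed heart at -4.061. Without that heart the change of Foxo3 moved from -0.04 to -0.63, and it was called lower. Foxo1 arms were separate in T5R10, where its change was 0.24 ± 0.11 (limma adjusted p = 0.342). Its second probe gave 0.12 there, and -0.10 against 0.03 in T5R1.

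Irs2, Dusp1, Errfi1, Nfkbia and Sgk1 encode parts of signalling pathways, and none of the 5 was called within a condition. Irs2, an adaptor of the insulin receptor, had levels in T5R1 of 2.39, 3.85, 3.57 and 2.84 in controls and 2.11, 1.99, 1.40 and 2.03 in stressed hearts. The arms were separate, but the mice differed widely and the change of -1.28 ± 0.50 missed the threshold (limma adjusted p = 0.0851). Its changes in the other conditions were -0.66, -0.91 and -0.26 (SE 0.50). Dusp1, a phosphatase that switches off MAP kinases, had -0.39 ± 0.27 in T5R1 and Errfi1, an inhibitor of EGF receptors, -0.71 ± 0.44, both with separate arms. Nfkbia, which holds NF-kappa B in the cytoplasm, had -0.31, 0.06, -0.61 and 0.06 (SE 0.25), and the kinase Sgk1, which promotes sodium uptake, -0.33, 0.00, -0.42 and 0.08 (SE 0.18).

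Pnpla2, Glul, Angptl4, Txnip, Fbxo32, Trim63 and Sult1a1, genes of metabolism and muscle wasting, had no call within a condition. Pnpla2, the lipase that starts triglyceride breakdown, had levels in T5R10 of 5.45, 5.52, 5.54 and 5.50 in controls and 5.79, 5.80, 5.74 and 5.99 in stressed hearts. In T10R42 they were 5.53, 5.46, 5.49 and 5.41 in controls and 5.80, 5.63, 5.89 and 5.78 in stressed hearts. In both, every stressed heart lay above every control, by 0.33 ± 0.08 (limma adjusted p = 0.1) and 0.30 ± 0.08 (adjusted p = 0.0667). In T10R1 every stressed heart lay below every control, at 5.75, 6.10, 6.11 and 6.11 against 6.21, 6.40, 6.16 and 6.20 (change -0.22 ± 0.08, adjusted p = 0.229). In T5R1 the arms overlapped, at 6.11, 5.87, 6.01 and 5.95 in controls and 5.79, 5.92, 5.73 and 6.01 in stressed hearts. Pnpla2 varied little between mice of an arm (pooled SD 0.11, below which 10.3% of genes lay).

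Glul, glutamine synthetase, had levels in T5R1 of 5.14, 5.29, 5.20 and 4.89 in controls and 4.70, 4.88, 4.60 and 4.81 in stressed hearts. The arms did not overlap (change -0.39 ± 0.13, limma adjusted p = 0.0549). In T5R10 they were 4.51, 4.55, 5.09 and 5.10 in controls and 5.14, 5.27, 5.10 and 4.99 in stressed hearts, which overlap (change 0.31 ± 0.13, adjusted p = 0.299). Its changes in T10R1 and T10R42 were -0.20 and 0.17 (SE 0.13 each). The lipase inhibitor Angptl4 had -0.36, 0.92, -0.32 and 0.23 (SE 0.53), and Txnip, which limits glucose uptake, 0.12, 0.71, -0.19 and 0.43 (SE 0.30). A second, dimmer Txnip probe gave -0.26, 0.47, -0.17 and 0.28, so the probes disagreed in sign in T5R1. The muscle ubiquitin ligases Fbxo32 and Trim63, which mark muscle wasting, had changes between -0.20 and 0.20 in all 4 conditions. A second, dimmer Trim63 probe gave -0.15, 0.21, -0.12 and -0.30, against 0.01, 0.20, -0.19 and 0.14 for the first, so they disagreed in T5R1 and T10R42. Sult1a1, a sulfotransferase, had -0.48, 0.29, -0.51 and 0.24 (SE 0.20), with separate arms in T5R1. Its second probe gave -0.46, 0.21, -0.53 and 0.23.

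The remaining 5 targets were Cdkn1a, Hif3a, Arrdc2, Gadd45g and Mertk. Arrdc2, an arrestin-like adaptor, had -0.65, 0.59, -1.04 and 0.26 (SE 0.47), and its second probe gave -0.63, 0.65, -1.11 and 0.23. Mertk, a receptor by which macrophages take up dying cells, was separate between arms in T5R10 (change -0.32 ± 0.13, limma adjusted p = 0.254). Hif3a, an oxygen-responsive factor, varied more between mice of an arm than 99.1% of genes (pooled SD 0.98). Its 3 probes gave -1.55, -0.66 and -0.84 in T5R1, and -0.90, 0.19 and -0.06 in T5R10, so they disagreed in the second. The 3 probes of the cell cycle inhibitor Cdkn1a disagreed in T10R1, at -0.58, -1.31 and 0.36. The stress sensor Gadd45g had -0.26, 0.09, -1.08 and -0.07 (SE 0.39).

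**Figure D3:**
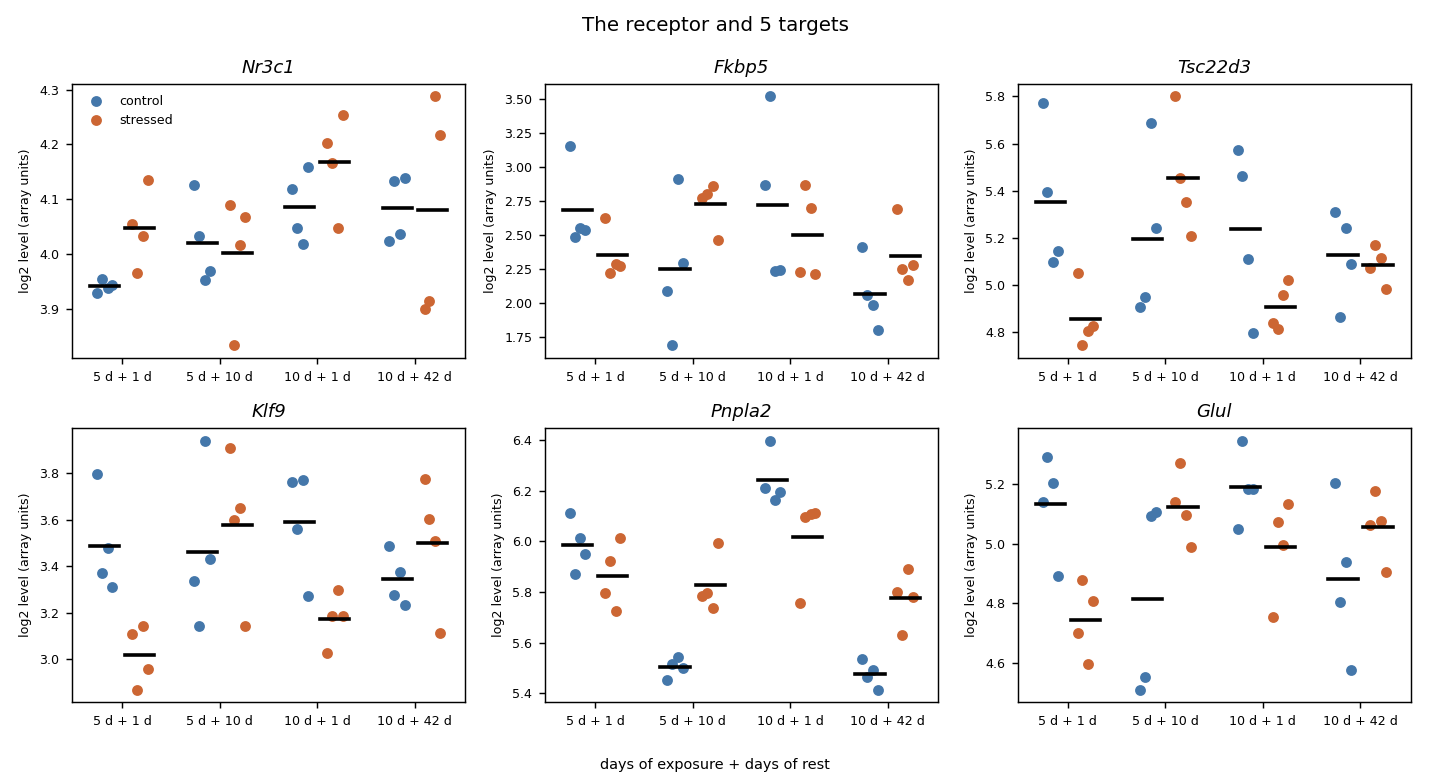
Log2 level (relative to the 75th percentile of the array) of the receptor gene Nr3c1 and of 5 targets in each mouse, by condition, with controls in blue, stressed mice in orange and arm means as black lines. Nr3c1 lies between 3.83 and 4.29 in all 32 hearts, with stressed hearts above controls in T5R1. Stressed hearts lie below controls in T5R1 for Tsc22d3, Klf9 and Glul, and above them in T5R10 and T10R42 for Pnpla2.

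Over the whole set, measured changes lay mostly below 0 after 1 day of rest and mostly above 0 after longer rest. In T5R1, 27 of 34 members were measured lower (median change -0.32), against 18328 of all 27532 genes (median -0.12). In T10R1, 30 of 34 were lower (median -0.32), against 13762 of all genes (median 0). In T5R10, 27 of 34 were higher (median 0.21), against 12690 of all genes (median -0.02). In T10R42, 23 of 34 were higher (median 0.07), against 12258 of all genes (median -0.03). These are counts and medians of genes that share their mice, and no test over the set was made. The sign of each median was the same under quantile normalisation, array median scaling and the authors' deposited values, and without any single array, but the size moved. In T5R1 the median was -0.18 without control replicate 1, where that of all genes was -0.13. In T5R10 it was 0.12 without stressed replicate 1. In T10R42 it ran from 0.04 without control replicate 2 to 0.16 without stressed replicate 4. The scanner software had flagged 3 arrays, all in T5R10, for evaluation, and the median there was 0.05 once they were left out.

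**Figure D4:**
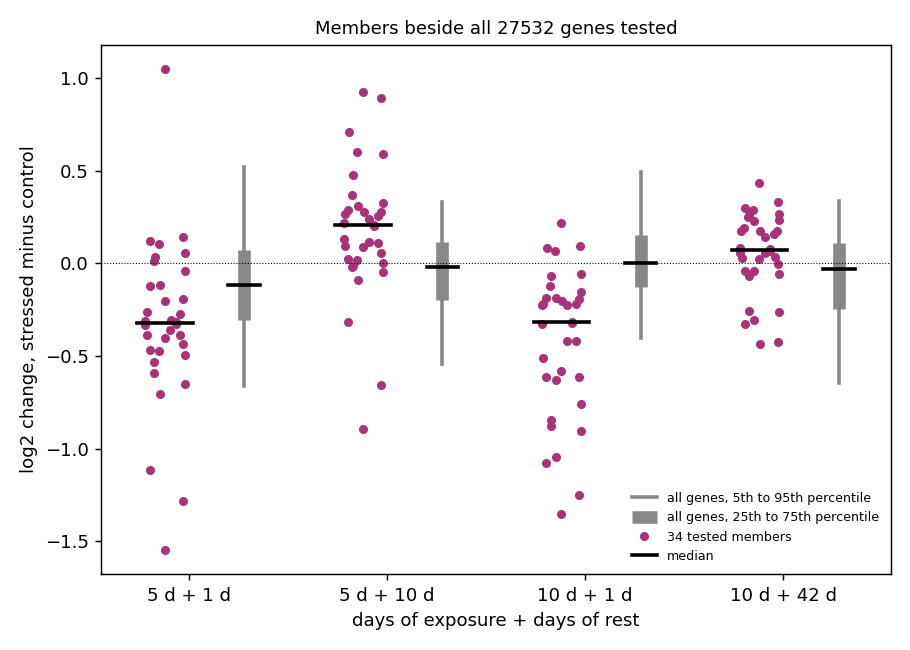
Log2 changes, stressed minus control, of the 34 tested members (points, with the median as a line) beside the percentiles of all genes tested (grey) in each condition. The median of the members is -0.32, 0.21, -0.32 and 0.07 from left to right.

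Of the 31 targets, 23 (74.2%) were measured lower in both T5R1 and T10R1, as were 35.5% of all genes. Of these, 20 were also measured higher in T5R10, and 14 (45.2% of the targets) higher in both T5R10 and T10R42, as were 10.5% of all genes. Fkbp5, Zbtb16, Klf9, Cebpb, Pnpla2, Glul and Sult1a1 were among the 14. The 4 conditions used different mice and controls. In T5R1, 10 members had all stressed hearts below all controls (15.7% of genes did) and 2 above (6.63%). In T10R1 these counts were 3 and 1 (5.48% and 4.3% of genes), in T5R10 1 and 2 (3.23% and 2.6%) and in T10R42 1 and 1 (7.3% and 4.15%).

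Whether the effect of stress itself differed between conditions was tested within the same limma fit. Each condition had its own slide, so rest or exposure and slide cannot be told apart in such differences. The T10R1 slide was scanned on day 1 and the other slides on day 2. Between T5R10 and T5R1, 3 members differed (2.49% of genes did), each with a higher effect after 10 days of rest (1.18% of genes were higher and 1.31% lower). The difference was 1.39 for Ddit4 (adjusted p = 0.0304), 0.45 for Pnpla2 (adjusted p = 0.0415) and 0.69 for Glul (adjusted p = 0.0472). None of the 3 remained with the replicate number as a block or without the 3 arrays marked for evaluation, and only 1 (Ddit4) did with the authors' deposited values. Leaving out single arrays gave 0 to 4 members.

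Between T10R42 and T10R1, Pnpla2 alone differed, by 0.52 (limma adjusted p = 0.0207), where 4.12% of genes did (1.89% higher, 2.23% lower). That call was lost in 2 of 26 alternatives, namely quantile normalisation and the fit without T10R42 stressed replicate 3 (adjusted p up to 0.0544). Between T10R1 and T5R1, the effects of longer and shorter exposure with the same rest, limma called 0 members (0.592% of genes), with 1 higher and 1 lower at an unadjusted p below 0.05. Of all 27532 genes, 3405 were higher and 1502 lower at that p. Averaged over the 4 conditions, 2 members were called lower, where 7.3% of genes were lower and 5.26% higher. Ddit4 had a mean change of -0.54 (adjusted p = 0.00579), called in all 43 alternatives, and Irs2 one of -0.78 (adjusted p = 0.0407), called in 24 of 43.

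One control heart of T10R1 stood apart. In replicate 3, Dusp1 was at 3.89 against 1.80 to 1.82 in the other 3 controls, Errfi1 at 6.08 against 2.42 to 2.87, and Gadd45g at 6.63 against 3.36 to 4.05. Irs2 was at 5.00 against 1.61 to 2.68, Sgk1 at 3.91 against 3.04 to 3.14 and Mt2 at 6.68 against 4.68 to 5.43. This heart was the highest of its arm in 12 of 31 targets, but not for Fkbp5, Tsc22d3 or Zbtb16. The mean of 13 immediate early genes, which respond to any acute stimulus within minutes, was 2.87 in it and -0.85 to -0.49 in the other 3.

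Without that heart, 0 members were still called in T10R1, the median change was -0.27, and 5 in place of 13 were lower at an unadjusted limma p below 0.05. The change of Errfi1 moved from -1.25 to -0.40, of Gadd45g from -1.08 to -0.37, of Irs2 from -0.91 to -0.18 and of Dusp1 from -0.76 to -0.24. Ddit4 stayed at -0.87 and Klf9 at -0.36.

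**Figure D5:**
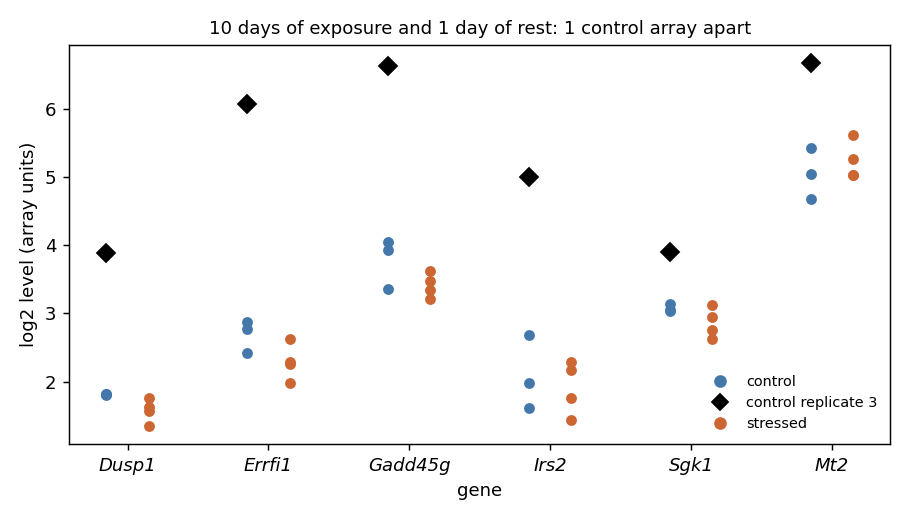
Log2 level (relative to the 75th percentile of the array) of 6 targets in the 8 hearts of the condition with 10 days of exposure and 1 day of rest, with controls in blue, stressed hearts in orange and control replicate 3 as a black diamond. That heart lies above all 7 others for each of the 6 genes.

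Levels of many members differed widely between mice of an arm. The pooled SD within arms had a median of 0.36 over the tested members and 0.22 over all genes. In T5R1, control replicate 1 held the highest level of its arm in 19 of 31 targets, while it did so for 26.5% of all genes. T5R10 control replicate 3 was highest in 17 (28.5% of all genes), and T10R42 control replicate 1 in 19 (25% of all genes). These 3 arrays were singled out after their values were seen. The last of them had the highest mean of lung markers of all 32 arrays (5.00) and the highest mean of adipocyte markers of its arm (1.90). The 3 arrays shared 11 genes as the highest of the arm: Fkbp5, Tsc22d3, Zbtb16, Klf9, Cebpb, Nfkbia, Arrdc2, Sult1a1, Pnpla2, Fbxo32 and Cited2. All 3 lay at row 2, column 2 of their slides. The array at that position in T10R1, control replicate 1, was highest in 6 targets. Mouse and slide position cannot be told apart for a single array, and the part of position was not tested.

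At the other end, T5R1 control replicate 4 held the highest level in 0 of 31 targets and the lowest in 14. This array too had a high mean of lung markers (2.95). T10R1 control replicate 4 held the lowest level in 19 targets and T5R10 stressed replicate 4 the lowest in 18. All genes gave these 3 arrays the lowest level in 24.7%, 30.9% and 27.8% of cases. The control arrays among them lay at row 1, column 1 of their slides, and the stressed array at row 1, column 3. In the other conditions the array at row 1, column 1 was lowest in 9 targets (T5R10 control replicate 2) and 13 (T10R42 control replicate 4). Zbtb16 showed the spread most plainly. Its T5R10 controls were at 2.52, 2.62, 4.86 and 4.60, while the stressed hearts were at 4.54, 5.00, 4.51 and 4.11.

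Other genes of the pathway were read from lists of their own. Among 14 tested genes induced by the receptor that are no members, 3 were called in T5R1. Lcn2, an iron-binding acute phase protein, rose by 1.87 ± 0.22 and Anxa1, an anti-inflammatory protein, by 0.62 ± 0.12, while Rgs2, a brake on G protein signals, fell by 0.65 ± 0.13 (limma adjusted p = 3.14e-06, 0.000884 and 0.00189). The median of the 14 was -0.25. Of 7 tested genes that the receptor represses, only Tnf was called in T5R1. This inflammatory cytokine was not well above background in any control and was at least 1.06-fold higher in stressed hearts (adjusted p = 0.0283), a bound set against the background level.

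Of 14 chaperones that hold the receptor, 4 fell and none rose in T5R1. Hsp90ab1 fell by 0.43 ± 0.09, Hspa1a by 2.51 ± 0.71, Bag1 by 0.25 ± 0.07 and Dnajb1 by 1.23 ± 0.40 (limma adjusted p = 0.00189, 0.0192, 0.0233 and 0.0418). Of 15 coregulators, the mitochondrial coactivator Ppargc1a fell, by 0.50 ± 0.12 (adjusted p = 0.0072). Of 7 genes of steroid supply, the 5 alpha-reductase Srd5a1 rose by 0.53 ± 0.10 and the cholesterol carrier Star by 1.35 ± 0.32, the latter with overlapping arms. Of 14 clock genes, the repressor Bhlhe41 rose by 0.43 ± 0.15 (adjusted p = 0.0489), with overlapping arms.
Over 19 alternatives the counts called in T5R1 ran from 3 to 5 for the other induced genes, 0 to 1 for repressed genes, 1 to 5 for chaperones, 1 to 3 for coregulators, 1 to 3 for steroid supply and 0 to 2 for clock genes. The chaperone count was 1 without control replicate 2 or stressed replicate 1 and 2 without control replicate 3. The repressed gene was lost without control replicate 1 or 2 or stressed replicate 1 or 3, and the clock count was 0 without control replicate 2, 3 or 4 or stressed replicate 1 or 2. The coregulator count was 3 without stressed replicate 3 or 4.
No gene of the 13 immediate early genes was called in T5R1. In T10R1 one was: Egr3 was at least 1.40-fold lower, with no stressed heart and 2 controls above background. That call was lost without the control heart that stood apart, replicate 3, when the median change of the 13 genes moved from -1.42 to -0.15. It was also lost without control replicate 1, stressed replicate 2 or stressed replicate 4. In T5R10 and T10R42 limma called 0 genes in these 7 lists.

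Markers of several cell types moved with the arms, and their part in the results above was not tested. In bulk tissue, fewer cells of a type and less RNA per cell cannot be told apart. All 8 cardiomyocyte markers were above background on every array. Their mean ran from 8.85 to 8.94 in T5R1 controls and 8.41 to 8.84 in stressed hearts, and 1 of the 8 fell. Of 8 fibroblast markers, 5 rose in T5R1 and 5 in T10R1, with means of 3.15 to 3.42 in T5R1 controls and 4.27 to 5.45 in stressed hearts, where Hsd11b1 and Ddit4 fell. Of 10 macrophage markers, 7 rose in T5R1 and 1 in T10R1, and of 4 tested erythroid markers 3 rose in T5R1. Over 19 alternatives the counts called in T5R1 ran from 5 to 6 for fibroblast markers, 4 to 9 for macrophage markers, 0 to 4 for erythroid markers and 0 to 4 for cardiomyocyte markers. The macrophage count was 4 without control replicate 3 or stressed replicate 1, and the cardiomyocyte count was 0 without 5 single arrays in turn (control replicates 1, 2 and 3, stressed replicates 1 and 2). In T10R1 the fibroblast count ran from 0, when each condition was fitted alone, to 6, and was 4 or 5 without any single array. The macrophage call there was lost without control replicate 1 or stressed replicate 4.

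The mean of 9 adipocyte markers ran from 0.74 to 1.18 in T5R1 controls and from -1.28 to 0.79 in stressed hearts, and none was called. In the 3 conditions where the arms of Pnpla2 were separate, no adipocyte marker was called, but their measured levels differed. In T10R1, where Pnpla2 was lower, 9 of 9 were lower (median change -1.03), with means of 0.355 to 1.385 in controls and -0.975 to 0.359 in stressed hearts. In T5R10, where it was higher, 9 of 9 were higher (median 0.27), with means of 0.22 to 0.98 in controls and -0.21 to 2.20 in stressed hearts. In T10R42, where it was also higher, 2 of 9 were higher (median -0.08), with means of -0.26 to 1.90 in controls and -0.69 to 1.76 in stressed hearts. In T5R1 9 of 9 were lower (median -0.81). The 2 lung markers were high in 3 single arrays, with means of 2.95 in T5R1 control replicate 4, 5.00 in T10R42 control replicate 1 and 3.67 in T10R42 stressed replicate 4, against at most -0.70 elsewhere. Without T5R1 control replicate 4, Ddit4, Hsd11b1 and Glul were called in T5R1. All 4 atrial markers were measured lower in T5R1 (median change -1.11, 3 of 4 at an unadjusted limma p below 0.05), with means of 7.32 to 8.10 in controls and 6.18 to 7.62 in stressed hearts. None was called, and 3 were without stressed replicate 2. Endothelial markers had no call in any condition. Of 5 skeletal muscle and 8 T and B cell markers 1 each fell in T5R1, and these counts ran from 0 to 2 and 0 to 3 over the alternatives. Both falls were lost without control replicate 2, 3 or 4 or stressed replicate 1 or 3, and that of the skeletal muscle marker also without stressed replicate 2.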

How the data were processed

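Total RNA of 32 single hearts was labelled with Cy3 and hybridised to 1-colour Agilent arrays, per the labels. The deposited scanner files hold intensity values, background-subtracted and detrended by Agilent Feature Extraction 10.7.3.1 per the file headers, and, as other values, flags of 0 or 1 per spot. The authors' deposited value table holds log2 values, whose scale follows the mean spot signal (correlation at least 0.99951); it served only as an alternative. Of the 62976 spots on each array, the 3671 controls were left out. Outlier spots were left out array by array, 5470 values over all 32 arrays together. Log2 processed signal was taken relative to the 75th percentile of each array, and spots of a probe were averaged. Kept probes were well above background on 3 of 4 arrays in some group, with at most 4 missing values. The brightest kept probe stood for its gene, which left 27532 genes. Names came from the RefSeq gene table of GRCm38.p6 or the array; probe positions are on mm9, and exons or UTRs were not looked up there. Arrays had 28792 to 40672 probes above background and a 75th percentile signal of 237.2 to 498.9, and 4 arrays per group limit the precision.

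limma 3.58.1 (R 4.3.3, data.table, version 1.17.8) fitted 8 group means over all 32 arrays, two-sided. Contrasts gave the stress effect of each condition, the mean of the 4 and 3 differences between conditions. Data were simulated for 27478 genes from the mean of each gene over all arrays and its pooled SD within groups. In the stressed arm of T5R1, 67, 67 and 66 genes were given log2 changes of 0.5, 1 and 2. limma recovered 43.3%, 70.1% and 100% of them, with 5 false calls. In the measured T5R1 13.7% of genes were called, a larger share than was changed here, so these rates do not give the power there. Every member was accounted for. Each array is given for those called in a condition and for Nr3c1, Nr3c2, Hsd11b1, Fkbp5 and Tsc22d3 by rule, and for Pnpla2, Glul, Irs2 and Mt1 after their values were seen. The 17 other lists held 162 genes, 149 tested, and up to 4 called genes a list were named. Members and lists were chosen with earlier results of these data known. Alternatives covered background correction, scaling, filter, probe choice, fit, blocks and single arrays.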

Additional observations from a re-analysis of the deposited data

Results flagged for a closer look

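Of 272 groups of 4 arrays (34 members in 8 groups), 21 (7.72%) had an array whose gap to the nearest other passed Dixon's 95% critical value as a share of the group's range; chance gives about 1 in 20. In T10R1 control replicate 3, Sgk1 was at 3.909, Dusp1 at 3.891 and Errfi1 at 6.084, each far above the other 3 controls. In T5R1 control replicate 1, Fkbp5 was at 3.158 and Nfkbia at 4.725, the highest of the arm. In T5R1 stressed replicate 1, Fkbp5 (2.629) and Cdkn1a (1.229) were high, and in stressed replicate 3, Foxo3 (-1.798) was high and Irs2 (1.399) low. Bcl6 was low in T5R1 control replicate 2 (2.37).

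In T10R1 stressed replicate 1, Hsd11b1 (1.505), Mt1 (7.457) and Pnpla2 (5.755) were low. In stressed replicate 3, Hif3a was low (-3.049) and Arrdc2 high (1.634). In control replicate 4, Cebpb (3.338) and Tat (-1.274) were low. Tat was high in T10R42 control replicate 2 (-0.107) and low in T5R10 stressed replicate 4 (-0.372). Dusp1 was low in T5R10 control replicate 4 (1.407) and Cdkn1a low in T5R10 stressed replicate 1 (1.333); the scanner software had marked both of these arrays for evaluation.

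The effect of stress differed between conditions in 4 tests of the difference itself. From T5R1 to T5R10 it was higher by 1.392 for Ddit4, 0.693 for Glul and 0.448 for Pnpla2, and from T10R1 to T10R42 by 0.523 for Pnpla2.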

How the results depend on the processing

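No member called in the main fit or in an alternative had the opposite sign in the other. The sign of some uncalled changes did vary over the alternatives. In T5R10 the change of Arrdc2 ran from -0.143 to 1.023 and that of Cdkn1a from -0.247 to 0.333. In T10R42 that of Nr3c2 ran from -0.372 to 0.252. Of 272 results for single members (34 members in 8 contrasts), 246 kept their side of the threshold under every alternative. In some alternatives 8 lost a call and 18 gained one. For T5R1 (4 members called), fitting each condition alone, an intensity trend in limma, and a filter of above background on all 32 arrays gave 7 each, and no filter gave 2. For the mean of the 4 effects (2), the mean of a gene's probes gave 4, and array median scaling and no filter gave 1 each. For T5R10 against T5R1 (3), array median scaling, the authors' values, normexp and no filter gave 1 each, and quantile normalisation, the replicate block and the fit without the 3 marked arrays gave 0. For T10R42 against T10R1 (1), the intensity trend and the all-array filter gave 2 and quantile normalisation gave 0. The cause was not tested. The counts stayed at 0 in T5R10, T10R1 and T10R1 against T5R1 in every setting.

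Without single arrays, counts ran from 1 to 4 in T5R1, 0 to 2 in T10R42, 1 to 3 in the mean, 0 to 4 for T5R10 against T5R1 and 0 to 2 for T10R42 against T10R1. The 2 in T10R42 appeared without stressed replicate 2. Correlations of same-numbered arrays of the arms were low, from -0.266 to 0.214, though for some stressed arrays the same-numbered control was the best match. In both arms of every slide, replicates 1 and 3 lay in row 2 and replicates 2 and 4 in row 1. Replicate number and slide row therefore go together. With the replicate block T5R1 gave 5 members. Fitting conditions alone gives no difference between conditions. Signal over background kept Hsd11b2 out.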
